A study of Mus musculus with 16 samples.

Results

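Amino acid transporters of 7 solute carrier families (SLC1, SLC3, SLC6, SLC7, SLC36, SLC38 and SLC43) were followed in MEFs (fibroblasts of mouse embryos) with and without Arkadia, the ubiquitin ligase encoded by Rnf111. Every row whose symbol named a gene of these families was taken, whatever its value, which gave 27 of the 12100 genes in the table. The table held 5 SLC1, 1 SLC3, 3 SLC6, 6 SLC7, 2 SLC36, 7 SLC38 and 3 SLC43 genes. RefSeq symbols of the same form name 61 mouse genes, and the others have no row here.

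RNA was measured by strand-specific sequencing of poly(A) RNA in 16 libraries of 4 lines. WT cells are Ark+/+. The rvWT and sim cells are Ark-/- cells that received a retrovirus carrying wild-type Arkadia (rvCAG-ArkWT) or the sim mutant (rvCAG-Arksim), and null cells are Ark-/- with no virus. Cells were left untreated (0 h) or were given TGFβ at 2.5 ng/ml for 1, 4 or 16 h. Set A held WT and null cells at 0, 1, 4 and 16 h, and set B held rvWT and sim cells at 0, 1 and 4 h with null cells at 0 and 1 h. The letters are those of the library names, and the design text names 2 batches of sequencing data. Each line and time had 1 library, apart from null at 0 and 1 h, which had 1 in each set. The submitters call the samples independent but name no separate cultures, so p-values here reflect library-to-library scatter, some of which may be technical. In the line tests the times of a line stood in for repeats, and in the TGFβ tests the time courses did. That scatter therefore also holds differences in TGFβ response between lines, and no p-value rests on repeat cultures of a line at a time. WT and null cells differ in origin as well as in Arkadia, and no line with an empty retrovirus was analysed here, so line or infection and Arkadia cannot be told apart.

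As background, amino acid transporters set how much of each amino acid a cell can take up, exchange or release from its lysosomes. The SLC7 light chains reach the cell surface bound to a heavy chain, Slc3a2 (CD98), and import leucine, arginine or cystine in exchange for another amino acid. The SLC1 and SLC38 carriers move glutamate, small neutral amino acids and glutamine with sodium, the SLC6 carriers move glycine, taurine and creatine, and the SLC36 carriers move small amino acids with protons. When amino acids run short, the kinase GCN2 raises translation of the transcription factor ATF4, which binds C/EBP-ATF response elements and raises RNA of several of these carriers and of amino acid synthesis enzymes. TGFβ signals through Smad proteins, and Arkadia promotes the degradation of repressors of that pathway such as SnoN and Ski.

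Rnf111 RNA followed the labels. In set A it averaged 14.8 ± 0.306 FPKM in WT cells and 0.163 ± 0.0331 FPKM in null cells (SD, n = 4 each). In set B it averaged 113 ± 11.9 FPKM in rvWT cells and 59.7 ± 3.31 FPKM in sim cells (SD, n = 3 each), against 0.481 ± 0.0646 FPKM in null cells (SD, n = 2). Here and below, each SD is over the TGFβ times of a line within a set and not over repeats. Means of rvWT and sim include 4 h, and those of null in set B do not. FPKM (fragments scaled to transcript length and library size) allows levels of different genes to be compared per length, but the depth behind each value is unknown. Total FPKM per library ran from 397019 to 481970.

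Of 10 fibroblast markers, 9 were listed. Their summed level was 1748 to 2271 FPKM in WT against 2950 to 4079 FPKM in null cells of set A, and 5062 to 5503 in rvWT and 4777 to 4952 in sim against 3036 to 3065 FPKM in null cells of set B. Of 6 epithelial markers, 4 keratins were listed (Krt8, Krt18, Krt19 and Krt14), and their sum was 279 to 527 FPKM in WT against 10.2 to 28.7 FPKM in null cells of set A. Most of the WT sum was Krt19, which averaged 408 FPKM in WT against 3.44 FPKM in null. Krt8 averaged 0.940 against 6.88 FPKM, Krt18 0.758 against 1.56 FPKM and Krt14 7.33 against 5.30 FPKM. Of these keratins 1 was called higher and 2 (Krt18 among them) lower in WT, and Epcam and Cdh1 had no row. Neural markers (Nes and Tubb3, of 6) summed to 38.6 to 58.1 FPKM in WT against 13.1 to 17.5 FPKM in null cells, and endothelial markers (Kdr, Flt1, Flt4 and Tek, of 6) to 24.5 to 43.3 against 8.79 to 10.7 FPKM. Of the endothelial markers Flt4 and Flt1 were called higher and Kdr lower in WT, with Flt4 at a mean of 25.0 FPKM in WT against 0.574 FPKM in null and Kdr at 0.636 against 4.56 FPKM. In set B the fibroblast sums of rvWT and sim lay above null and the endothelial sums below it (6.68 to 7.19 FPKM in rvWT and 7.53 to 9.05 in sim against 12.0 to 12.4 FPKM), whereas the epithelial sums overlapped null in both lines and the neural sums overlapped in both. Single markers split there. Of 3 tested endothelial markers 1 was called higher and 2 lower in rvWT, and 1 higher and 1 lower in sim. Flt1 averaged 3.08 FPKM in rvWT and 2.49 in sim against 0.931 FPKM in null. Of 3 tested keratins 1 was higher and 2 lower in both lines, and of the 2 neural markers 1 was higher and 1 lower. Lpl, the 1 listed of 4 adipocyte markers, had 26.7 to 54.1 FPKM in WT against 72.15 to 119 in null of set A. In set B it had 16.1 to 30.3 FPKM in rvWT and 22.8 to 39.6 in sim, against 142 to 150 FPKM in null. Haematopoietic sums (4 of 6 markers) were 6.355 to 7.97 FPKM in WT against 13.2 to 17.1 FPKM in null. Of the 2 tested there, 1 was called higher and 1 lower. Muscle sums (2 of 4 markers) overlapped null in every line. The part of these markers in the line differences was not tested. In such bulk RNA, fewer cells of a type and less RNA per cell cannot be told apart.

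Taken over all 16 libraries, the most abundant member was Slc38a2 (SNAT2, which imports small neutral amino acids with sodium), with a mean of 106 FPKM and a range of 72.6 to 147.6 FPKM. Slc3a2 followed at a mean of 97.5 FPKM, Slc7a5 (LAT1, the leucine carrier that pairs with it) at 88.9 and Slc6a6 (the taurine transporter) at 73.1 FPKM. Their ranges overlapped and the order turned by line: Slc6a6 was highest in WT (mean 142.5 FPKM, against 87.3 for Slc38a2), Slc3a2 in rvWT and sim (140.4 and 133 FPKM), and Slc38a2 in the null cells of both sets (134 and 104 FPKM). The next member, Slc38a10, averaged 32.8 FPKM, and 19 members in all had a mean above 4 FPKM. The lowest were Slc7a2, Slc1a6, Slc7a4 and Slc1a1, each with a mean under 1 FPKM. Genes averaging below 1 FPKM over the libraries of a fit, these 4 among them, were not tested, so 23 members entered the fits of set A and of TGFβ. In set B Slc38a9 also fell under the filter, which left 22. The 27 members together held 0.136% to 0.164% of all FPKM in WT against 0.135% to 0.176% in null libraries of set A, and 0.142% to 0.150% in rvWT and 0.151% to 0.155% in sim against 0.109% to 0.121% in null libraries of set B.

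**Figure D1:**
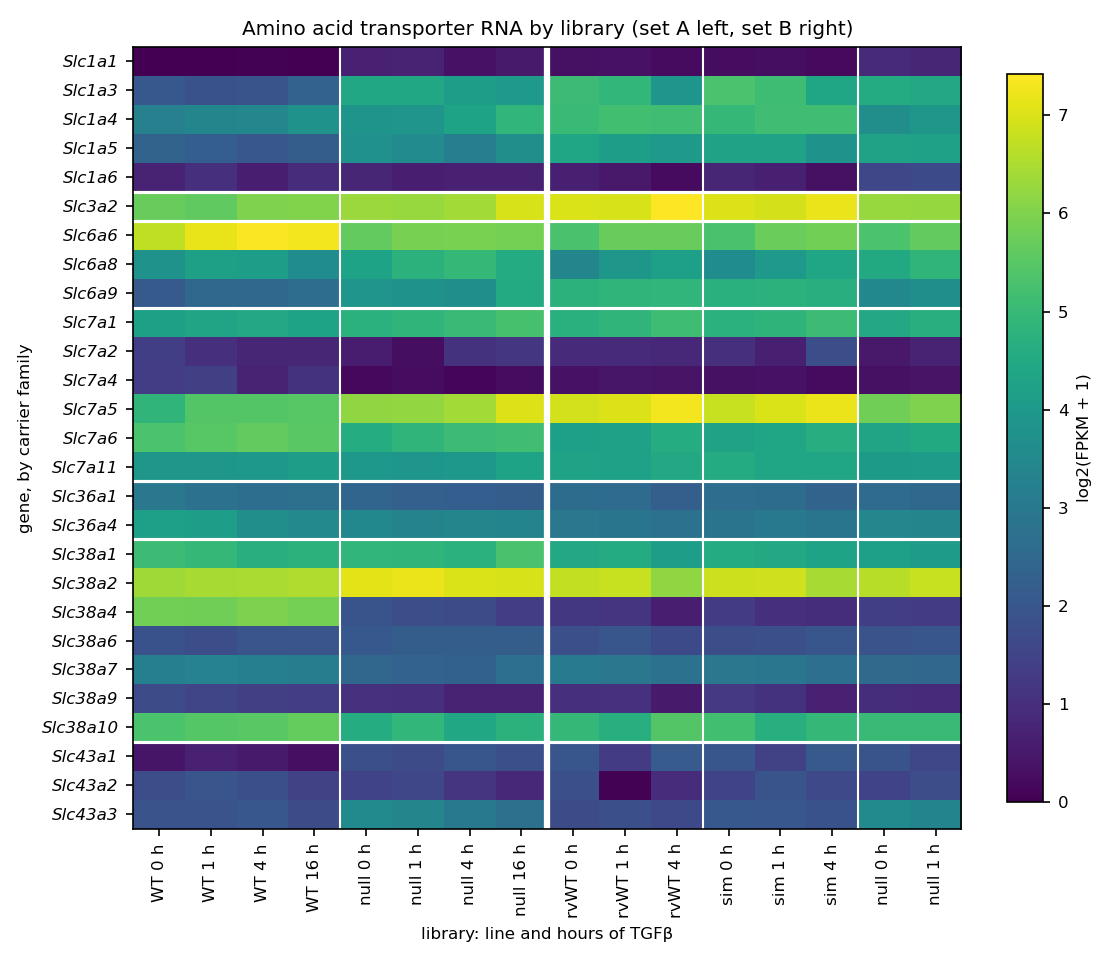
Levels of the 27 members (rows, by family) in the 16 libraries (columns, by line and hours of TGFβ, set A left of the thick white line and set B right of it), as log2(FPKM + 1) by colour. Slc38a4 and Slc6a6 were brightest in the WT libraries, Slc7a5 and Slc3a2 in the rvWT and sim libraries and in null at 16 h.

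Differences between lines were tested with limma on log2(FPKM + 1) with time as a factor, adjusted over all genes of the table that passed the filter, and a gene was called at an adjusted p below 0.05. In WT against null, 21 of 23 members were called, where 67.5% of 10976 genes were. Of these members 9 were higher in WT (37.4% of all genes) and 12 were lower (30.1%), and the median difference was -0.26 over the members and 0.07 over all genes. In rvWT against null, 12 of 22 members were called, where 38.6% of 10958 genes were, 8 of them higher (16% of all genes) and 4 lower (22.6%). In sim against null, 12 of 22 were called, where 34.7% of genes were, 9 higher (13.9%) and 3 lower (20.8%). The rvWT and sim comparisons share the 2 null libraries of set B, which has no null library at 4 h, so a difference from null rests chiefly on 0 and 1 h. Without the null library at 0 h in that set, 7 members were called in rvWT against null, and without the null library at 1 h, 7 were called in sim against null.

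No library is common to WT against null and rvWT against null, and 11 members were called in both. Of these, 6 (Slc1a3, Slc1a4, Slc3a2, Slc6a9, Slc7a1 and Slc7a5) were lower in WT and higher in rvWT than in the null cells of the same set. Another 2 (Slc7a6 and Slc36a4) were higher in WT and lower in rvWT, Slc38a7 was higher in both, and Slc6a8 and Slc43a3 were lower in both. The first pattern held 54.5% of the members called in both, and 18% of the 3020 genes called in both over the whole table. The null cells of set B and set A differed by over 0.5 on the log2(FPKM + 1) scale in 3 of 23 members at 0 h and at 1 h (Slc1a5, Slc38a1 and Slc38a4), where 15% and 13.9% of genes did. For Slc7a1 that difference was -0.27 at 0 h and -0.17 at 1 h, beside 0.22 for rvWT against null.

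**Figure D2:**
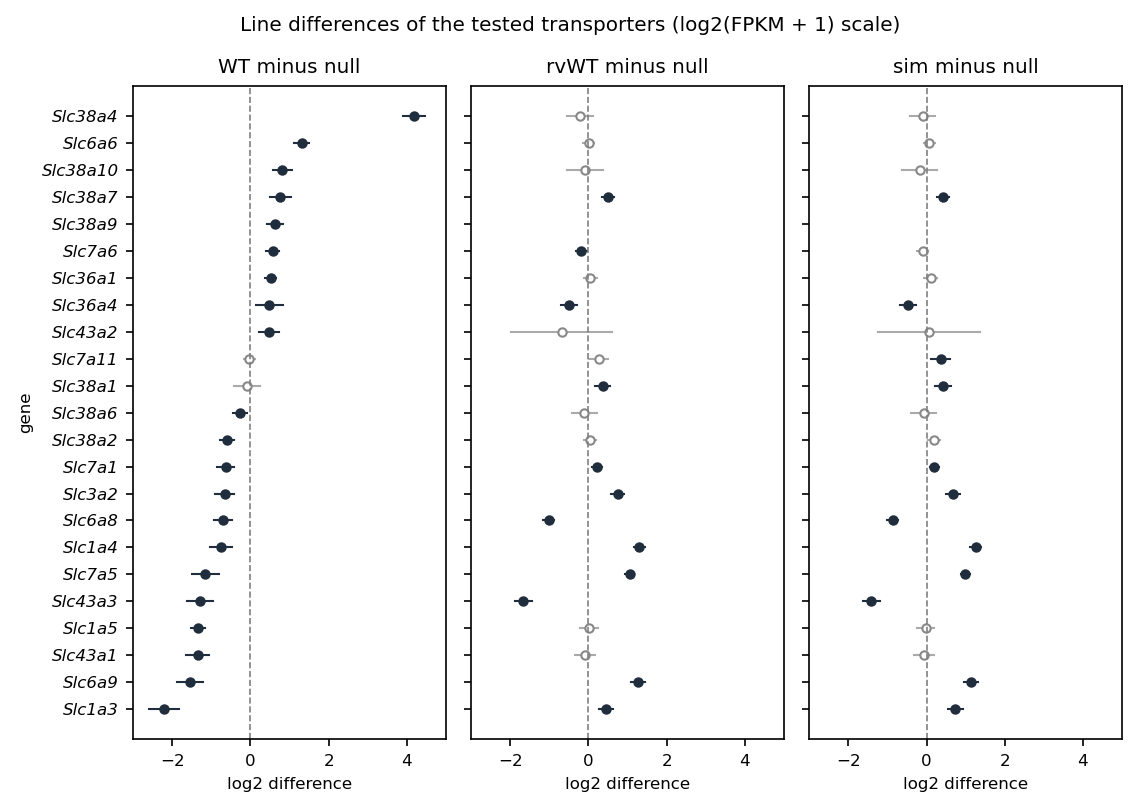
Log2 differences of the tested members (rows, ordered by the WT difference) in WT, rvWT and sim against null, with 95% confidence intervals from limma as bars; filled points passed an adjusted p of 0.05. Slc38a4 lay at 4.18 in WT against null, and Slc1a4, Slc6a9, Slc7a5 and Slc3a2 lay left of 0 in WT and right of 0 in rvWT and sim.

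The CD98 heavy chain and its leucine-importing light chain were lowest in WT and highest in rvWT and sim cells. Slc7a5 had 27.9, 42.0, 42.8 and 43.9 FPKM at 0, 1, 4 and 16 h in WT cells, against 71.8, 73.2, 83.4 and 130 FPKM in null cells of set A. In set B it had 119, 129 and 156 FPKM at 0, 1 and 4 h in rvWT cells and 110, 127 and 147.6 FPKM in sim cells, against 55.7 and 62.9 FPKM at 0 and 1 h in null cells. WT did not overlap null in set A, nor did rvWT or sim in set B. The log2 difference was -1.15 ± 0.14 in WT against null (SE; limma adjusted p = 0.00102), 1.06 ± 0.05 in rvWT against null (adjusted p = 0.000129) and 0.99 ± 0.05 in sim against null (adjusted p = 0.000208).

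Slc3a2 had 50.4, 48.3, 62.6 and 63.3 FPKM in WT cells, against 77.6, 76.5, 83.6 and 125 FPKM in null cells of set A. The set B libraries had 127, 124 and 171 FPKM in rvWT cells and 129, 123 and 147.6 FPKM in sim cells, against 76.95 and 75.6 FPKM in null cells. Again no library of one line fell within the range of null in its set. Its log2 difference was -0.66 ± 0.09 in WT (SE; limma adjusted p = 0.002), 0.74 ± 0.07 in rvWT (adjusted p = 0.00106) and 0.68 ± 0.07 in sim (adjusted p = 0.00169). In set A the ratio of Slc7a5 to Slc3a2 averaged 0.700 ± 0.129 in WT against 0.981 ± 0.0514 for null of that set (SD, n = 4 each). The same ratio in set B was 0.965 ± 0.0706 in rvWT and 0.963 ± 0.0949 in sim (SD, n = 3 each), against 0.778 ± 0.0759 in null cells (SD, n = 2).

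Of the other partners of CD98, Slc7a6 (y+LAT2, which exchanges cationic for neutral amino acids) had 38.9, 44.0, 48.4 and 44.9 FPKM in WT cells, against 23.2, 27.9, 33.4 and 34.3 FPKM in null cells of set A. It was higher in WT by 0.56 ± 0.07 on the log2 scale (SE; limma adjusted p = 0.00109). Set B values were 17.3, 18.2 and 23.2 FPKM in rvWT and 18.3, 20.1 and 23.7 FPKM in sim, against 19.2 and 21.7 FPKM in null cells. These ranges overlapped, and the rvWT difference of -0.18 ± 0.05 (adjusted p = 0.0462) was lost in 6 of 8 fits that left out a library and under median-ratio scaling (adjusted p = 0.124) and quantile normalization (adjusted p = 0.165). In sim it was -0.10 ± 0.05 (adjusted p = 0.201).

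Slc7a11 (xCT, which imports cystine and exports glutamate) had 14.3, 14.2, 14.7 and 16.6 FPKM in WT cells, against 14.5, 14.0, 14.5 and 18.7 FPKM in null cells of set A. These groups overlapped, and the difference was -0.04 on the log2 scale with a 95% interval of -0.18 to 0.10 (limma adjusted p = 0.598). In set B, levels were 18.5, 18.2 and 21.2 FPKM in rvWT and 22.7, 19.9 and 19.7 FPKM in sim, against 15.5 and 15.8 FPKM in null cells. Both ranges lay above null without overlap. The rvWT difference was 0.27 ± 0.10 (adjusted p = 0.081), and the sim difference was 0.37 ± 0.10 (adjusted p = 0.0354), which was lost in 5 of 8 fits that left out a library.

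Within SLC43, which works without a heavy chain, Slc43a3 (in human cells a carrier of purine nucleobases rather than of amino acids) had 2.70, 2.72, 3.08 and 2.25 FPKM in WT cells, against 10.6, 9.39, 7.03 and 5.71 FPKM in null cells of set A. In set B it had 2.27, 2.53 and 2.12 FPKM in rvWT and 3.16, 3.08 and 2.64 FPKM in sim, against 10.6 and 9.29 FPKM in null cells. All 3 Arkadia-carrying lines lay below null with no overlap, with log2 differences of -1.29 ± 0.13 in WT (SE; limma adjusted p = 0.000685), -1.67 ± 0.09 in rvWT (adjusted p = 0.000195) and -1.42 ± 0.09 in sim (adjusted p = 0.000419). Slc43a1 (LAT3, a leucine carrier) ranged from 0.226 to 0.606 FPKM in WT against 2.25 to 2.97 FPKM in null cells, and fell by 1.35 on the log2 scale (limma adjusted p = 0.000371). Slc43a2 (LAT4) ranged from 1.70 to 2.85 FPKM in WT against 0.762 to 1.99 FPKM in null cells, where it was called 0.47 higher in WT (limma adjusted p = 0.00893), and was listed at 0.0304 FPKM in rvWT at 1 h, against 0.931 to 2.51 FPKM in the other rvWT libraries.

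The carriers of alanine, serine, cysteine and glutamine split in set B. Slc1a4 (ASCT1) had 8.35, 9.64, 9.93 and 12.8 FPKM in WT cells, against 13.47, 13.8, 18.7 and 28.3 FPKM in null cells of set A. The set B libraries had 31.9, 35.1 and 34.7 FPKM in rvWT and 30.0, 34.2 and 34.7 FPKM in sim, against 11.7 and 14.2 FPKM in null cells. Every WT library lay below and every rvWT and sim library above the null libraries of its set, with log2 differences of -0.76 ± 0.11 in WT (SE; limma adjusted p = 0.00217), 1.30 ± 0.05 in rvWT (adjusted p = 0.000121) and 1.26 ± 0.05 in sim (adjusted p = 0.000181). Slc1a5 (ASCT2, the glutamine exchanger) was likewise lower in WT, at 4.10, 3.64, 3.07 and 3.59 FPKM against 12.4, 10.97, 8.003 and 11.7 FPKM in null cells of set A (log2 difference -1.34 ± 0.07, SE; limma adjusted p = 0.000112). Set B values were 19.5, 16.4 and 15.2 FPKM in rvWT and 18.4, 18.3 and 13.1 FPKM in sim, against 18.3 and 18.0 FPKM in null cells. Those ranges overlapped, and the 95% interval of the difference was -0.20 to 0.24 in rvWT and -0.25 to 0.20 in sim.

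Promoter windows of Slc1a4 and Slc7a11 are shown because they were the members whose window held a C/EBP-ATF response element, searched as TGATGNAAN on both strands. RefSeq windows (GRCm38.p6, 250 bases before to 50 bases after the annotated start) were matched for 19 of the 27 members. These 19 members had 26 windows. The element lay in 2 of the 26, which belong to 2 members, and in 3.95% of 32851 windows of the same length. Each window is written 5′ to 3′ along its gene, on the minus strand of chr11:20332664-20332963 and of chr3:50443564-50443863, and capitals mark the matches, which begin at base 246 in Slc1a4 and at bases 185 and 203 in Slc7a11.
Slc1a4: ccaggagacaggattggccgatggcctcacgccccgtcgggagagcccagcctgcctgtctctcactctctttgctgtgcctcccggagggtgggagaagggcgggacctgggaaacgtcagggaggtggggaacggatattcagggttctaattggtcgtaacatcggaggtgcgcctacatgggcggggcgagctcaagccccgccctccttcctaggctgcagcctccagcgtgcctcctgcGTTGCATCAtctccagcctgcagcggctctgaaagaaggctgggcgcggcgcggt
Slc7a11: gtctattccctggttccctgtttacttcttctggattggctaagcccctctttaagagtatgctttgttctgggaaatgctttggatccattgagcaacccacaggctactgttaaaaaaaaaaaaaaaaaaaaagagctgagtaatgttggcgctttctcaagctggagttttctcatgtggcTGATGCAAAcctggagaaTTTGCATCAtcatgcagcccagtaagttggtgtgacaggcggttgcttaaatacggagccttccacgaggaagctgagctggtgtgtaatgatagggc
The Smad palindrome GTCTAGAC lay in none of the 19 members' windows and in 0.213% of all windows. A match is a description of these letters and not of binding. The 2 genes were unlike each other in the lines. Against null, Slc1a4 was higher by over 1 log2 unit in rvWT and sim and lower in WT (-0.76). Slc7a11 did not pass in WT (-0.04) or in rvWT (0.27, limma adjusted p = 0.081). In sim it was 0.37 higher, a call lost in 5 of 8 fits that left out a library.

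**Figure D3:**
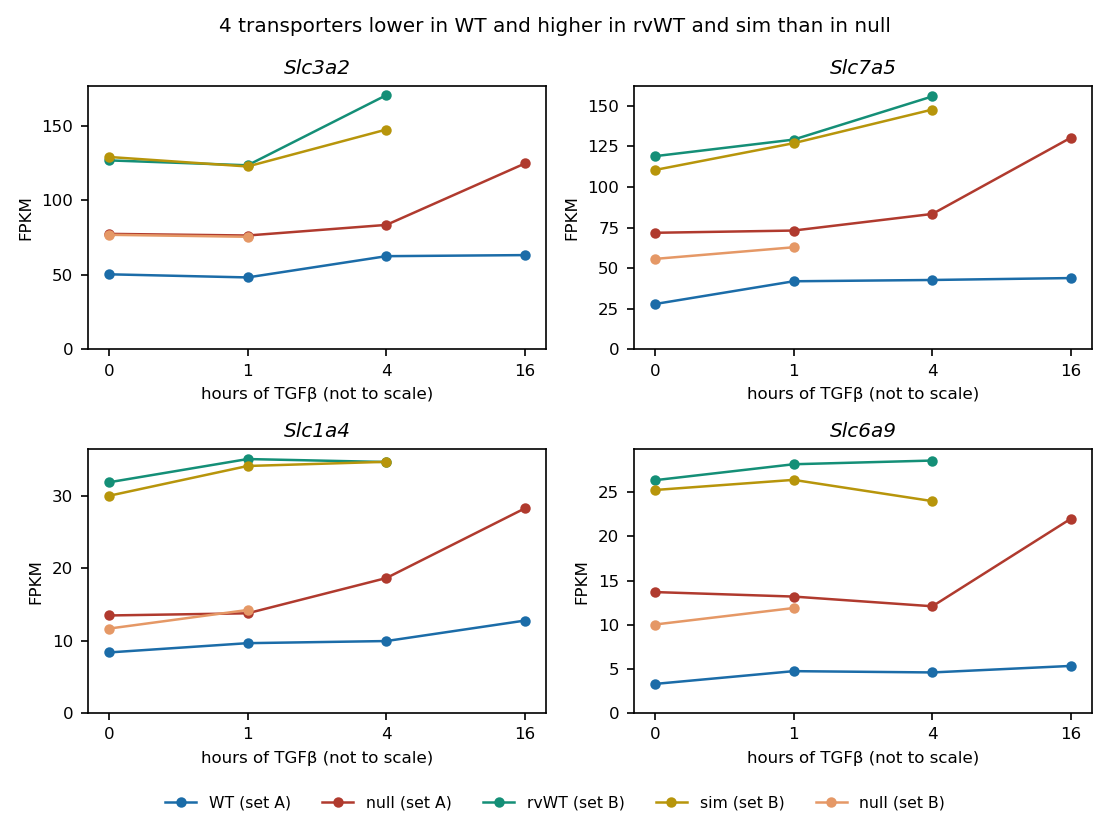
FPKM of Slc3a2, Slc7a5, Slc1a4 and Slc6a9 by hours of TGFβ (spaced evenly, not to scale), 1 point per library, coloured by line and set. The rvWT and sim lines lie above both null lines and WT below them, and null of set A is highest at 16 h.

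Glutamate uptake carriers were represented by Slc1a3 (GLAST), which had 3.13, 2.68, 2.81 and 4.04 FPKM in WT cells, against 20.7, 20.4, 17.0 and 15.1 FPKM in null cells of set A. The mean was 5.79 times lower in WT (log2 difference -2.21 ± 0.15, SE; limma adjusted p = 0.000198). In set B, levels were 32.9, 29.5 and 14.1 FPKM in rvWT and 38.8, 33.5 and 19.4 FPKM in sim at 0, 1 and 4 h, against 22.6 and 21.2 FPKM in null cells at 0 and 1 h. At 0 and 1 h rvWT and sim lay above null, and at 4 h, where set B has no null library, they lay below those null values. The log2 difference was 0.45 ± 0.08 in rvWT (adjusted p = 0.008) and 0.73 ± 0.08 in sim (adjusted p = 0.00185), and the rvWT call was lost without null at 0 h (adjusted p = 0.0796) or at 1 h (adjusted p = 0.0509). Slc1a1 (EAAC1) was listed at 0 to 0.0379 FPKM in WT against 0.286 to 0.656 FPKM in null cells, and Slc1a6 (EAAT4) reached 1.98 and 2.17 FPKM in null cells of set B and at most 1.01 FPKM elsewhere.

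The SLC6 members followed 3 patterns. Slc6a9 (GlyT1, the glycine transporter) had 3.28, 4.73, 4.58 and 5.32 FPKM in WT cells, against 13.7, 13.2, 12.1 and 22.0 FPKM in null cells of set A. In set B it had 26.4, 28.2 and 28.6 FPKM in rvWT and 25.3, 26.4 and 24.0 FPKM in sim, against 10.0 and 11.9 FPKM in null cells. No line overlapped the null cells of its set, with log2 differences of -1.55 ± 0.13 in WT (SE; limma adjusted p = 0.000356), 1.27 ± 0.07 in rvWT (adjusted p = 0.000239) and 1.14 ± 0.07 in sim (adjusted p = 0.000429).

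Slc6a6, the taurine transporter, was instead highest in WT. It had 104, 144, 165 and 157 FPKM in WT cells, against 48.9, 58.5, 59.9 and 57.5 FPKM in null cells of set A (log2 difference 1.31 ± 0.07, SE; limma adjusted p = 0.000121). The set B libraries had 38.3, 50.7 and 50.9 FPKM in rvWT and 38.6, 52.5 and 56.9 FPKM in sim, against 38.7 and 48.6 FPKM in null cells. These were alike at each shared time, with 95% intervals of -0.14 to 0.15 in rvWT and -0.07 to 0.22 in sim.

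Slc6a8, the creatine transporter, was lower in every Arkadia-carrying line. It had 13.1, 17.6, 16.8 and 11.3 FPKM in WT cells, against 19.0, 26.2, 30.0 and 22.9 FPKM in null cells of set A. Set B values were 9.65, 14.3 and 17.3 FPKM in rvWT and 11.3, 15.1 and 19.7 FPKM in sim, against 21.7 and 28.2 FPKM in null cells. No group overlapped null, and the log2 difference was -0.70 ± 0.09 in WT (SE; limma adjusted p = 0.00146), -1.02 ± 0.06 in rvWT (adjusted p = 0.000255) and -0.87 ± 0.06 in sim (adjusted p = 0.000521).

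**Figure D4:**
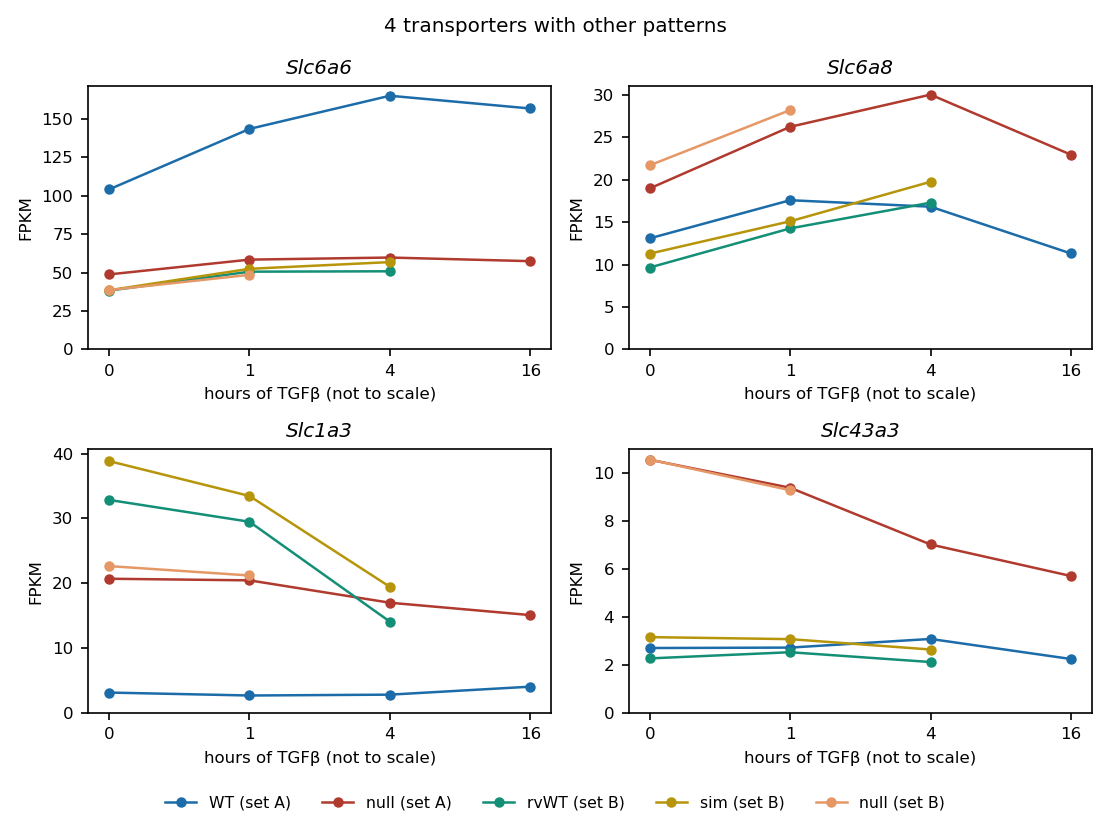
FPKM of Slc6a6, Slc6a8, Slc1a3 and Slc43a3 by hours of TGFβ (spaced evenly, not to scale), 1 point per library, coloured by line and set. Slc6a6 is high in WT alone, Slc43a3 is high in both null series, and Slc1a3 drops between 1 and 4 h in rvWT and sim.

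Of the cationic carriers, Slc7a1 (CAT1, which imports arginine and lysine) was tested. It had 17.6, 19.1, 21.3 and 18.7 FPKM in WT cells, against 25.8, 27.9, 31.1 and 37.1 FPKM in null cells of set A (log2 difference -0.63 ± 0.09, SE; limma adjusted p = 0.00198). In set B, levels were 25.2, 28.2 and 33.8 FPKM in rvWT and 25.6, 27.5 and 33.0 FPKM in sim, against 21.3 and 24.7 FPKM in null cells. No line overlapped the null cells of its set, and the difference in set B was 0.22 ± 0.05 in rvWT (adjusted p = 0.0206) and 0.20 ± 0.05 in sim (adjusted p = 0.029). These set B differences rest on 2 null libraries and are small. The null cells of set B themselves differed from those of set A by -0.27 at 0 h and -0.17 at 1 h. Slc7a2 (CAT2) and Slc7a4 stayed under 2.5 FPKM, and Slc7a4 ranged from 0.669 to 1.67 FPKM in WT against 0.0850 to 0.187 FPKM in null cells of set A.

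Among the sodium-coupled neutral carriers, 3 genes that are neighbours on chromosome 15 (Slc38a1, Slc38a2 and Slc38a4) had 3 different patterns. Slc38a4 (SNAT4), imprinted in mouse, had 56.2, 55.3, 61.4 and 57.8 FPKM in WT cells, against 2.81, 2.47, 2.28 and 1.54 FPKM in null cells of set A. Its mean was 25.4 times higher in WT, and its difference was the largest of the 23 tested members on the log2(FPKM + 1) scale (log2 difference 4.18 ± 0.11, SE; limma adjusted p = 2.5e-05). In set B it had 1.31, 1.197 and 0.540 FPKM in rvWT and 1.48, 1.06 and 0.967 FPKM in sim, against 1.60 and 1.44 FPKM in null cells, so no set B line came near the WT level.

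Slc38a2 ranged from 81.8 to 91.9 FPKM in WT against 124 to 147.6 FPKM in null cells of set A and was lower in WT (log2 difference -0.61 ± 0.07, SE; limma adjusted p = 0.000989). In set B it ranged from 72.6 to 110 FPKM in rvWT and from 86.2 to 118 FPKM in sim, against 97.3 to 111 FPKM in null cells, and neither difference from null passed (adjusted p = 0.725 in rvWT and 0.0684 in sim). Slc38a1 (SNAT1) had 32.8, 29.6, 24.4 and 26.1 FPKM in WT cells, against 28.6, 28.1, 25.7 and 38.5 FPKM in null cells of set A, with overlap and a 95% interval of -0.41 to 0.23 on the log2 scale. The set B libraries had 21.2, 22.9 and 16.6 FPKM in rvWT and 22.8, 21.3 and 18.8 FPKM in sim, against 17.2 and 16.0 FPKM in null cells. The rvWT range overlapped null and the sim range did not. It was called higher in rvWT by 0.36 ± 0.08 (adjusted p = 0.0184) and in sim by 0.42 ± 0.08 (adjusted p = 0.0128). The null cells of set B differed by more than this from those of set A, by -0.70 at 0 h and -0.78 at 1 h.

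Slc38a7, which in human cells exports glutamine from lysosomes, had 8.29, 8.83, 8.26 and 7.80 FPKM in WT cells, against 4.51, 4.03, 3.94 and 5.52 FPKM in null cells of set A. Set B values were 7.36, 6.75 and 5.92 FPKM in rvWT and 6.72, 6.60 and 5.53 FPKM in sim, against 4.94 and 4.50 FPKM in null cells. It was above null without overlap in all 3 lines, by 0.76 ± 0.10 in WT (SE; limma adjusted p = 0.0017), 0.50 ± 0.06 in rvWT (adjusted p = 0.0025) and 0.42 ± 0.06 in sim (adjusted p = 0.00498, or 0.056 without null at 1 h). Slc36a1 (PAT1, a proton-coupled carrier of lysosomes and the cell surface) had 6.80, 5.77, 5.45 and 5.74 FPKM in WT cells, against 4.34, 3.89, 3.64 and 3.54 FPKM in null cells of set A (log2 difference 0.52 ± 0.06; limma adjusted p = 0.000932). In set B it ranged from 3.74 to 5.18 FPKM in rvWT and from 4.13 to 5.29 FPKM in sim, against 4.64 to 5.05 FPKM in null cells, with overlap. Slc38a9, which senses arginine at the lysosome, ranged from 1.54 to 2.31 FPKM in WT against 0.650 to 1.07 FPKM in null cells and was 0.63 higher (limma adjusted p = 0.00132).

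Slc36a4 (PAT4) had 17.1, 16.6, 11.7 and 10.4 FPKM in WT cells, against 10.1, 8.92, 9.62 and 9.26 FPKM in null cells of set A (log2 difference 0.49 ± 0.13, SE; limma adjusted p = 0.022). In set B, levels were 6.85, 6.32 and 5.92 FPKM in rvWT and 6.23, 7.05 and 6.35 FPKM in sim, against 9.88 and 9.48 FPKM in null cells. It was lower without overlap in both, with log2 differences of -0.51 ± 0.08 in rvWT (adjusted p = 0.00637) and -0.47 ± 0.08 in sim (adjusted p = 0.00906). Both calls were lost without null at 0 h (adjusted p = 0.0674 in rvWT and 0.0908 in sim), and that in sim also without null at 1 h (adjusted p = 0.0588). Slc38a10 had 38.8, 42.9, 45.4 and 50.4 FPKM in WT cells, against 23.0, 29.4, 20.9 and 26.2 FPKM in null cells of set A (log2 difference 0.81 ± 0.10; limma adjusted p = 0.00111). In set B it ranged from 24.8 to 42.1 FPKM in rvWT and from 24.6 to 35.2 FPKM in sim, against 31.0 to 31.2 FPKM in null cells, and neither difference passed. Slc38a6 stayed between 2.18 and 3.60 FPKM in all 16 libraries and was called lower in WT (log2 difference -0.26) (limma adjusted p = 0.0227).

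The rvWT and sim cells, which differ by the sim mutation and in Rnf111 level, were compared directly in set B. No member passed (0 of 22; 0.493% of all genes did), also with limma without trend, and 4 members (Slc1a3, Slc6a8, Slc38a2 and Slc43a3) had an unadjusted p under 0.05. The largest of these 4 differences was that of Slc1a3, at -0.28 on the log2 scale (limma adjusted p = 0.156), with a 95% interval of -0.45 to -0.12. For Slc7a5 the interval was -0.03 to 0.17, for Slc1a4 -0.08 to 0.16 and for Slc3a2 -0.08 to 0.21. A p that misses the threshold does not show that the lines were alike.

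A list of 9 carriers known as ATF4 targets (Slc1a4, Slc1a5, Slc3a2, Slc6a9, Slc7a1, Slc7a3, Slc7a5, Slc7a11 and Slc38a2, of which all but Slc7a3 were tested) described the same split. The 8 tested are members already given above, so these counts restate their values and are no separate result. The list was also chosen with earlier results of these data known. In WT against null 7 of 8 were lower and none was higher (30.1% of all genes were lower), with a median log2 difference of -0.71 where all genes had 0.07. In rvWT against null 5 of 8 were higher and none lower (16% of all genes were higher; median 0.51 against -0.03). In sim against null 6 of 8 were higher and none lower (13.9% of all genes were higher; median 0.53 against -0.02). When a library was left out, the count lower in WT stayed at 7 of 8, and 4 to 5 of 8 were higher in rvWT and 4 to 6 in sim.

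Other genes of the ATF4 pathway and of serine, proline and asparagine synthesis moved beside these carriers. Of 18 such genes, 15 were lower and 2 (Cebpb and Pycr1) higher in WT against null, with a median of -0.96, where 30.1% and 37.4% of all genes were. In rvWT against null 16 were higher and none lower (median 0.71), where 16% and 22.6% of all genes were. In sim 15 were higher and none lower (median 0.61), where 13.9% and 20.8% of all genes were. Atf4 RNA averaged 179 ± 20.2 FPKM in WT against 285 ± 53.9 FPKM in null of set A (SD, n = 4 each), and 438 ± 86.0 in rvWT and 399 ± 71.7 in sim (SD, n = 3 each) against 261 ± 6.05 FPKM in null of set B (SD, n = 2). These set B means, and those below, pool 0, 1 and 4 h in rvWT and sim but 0 and 1 h in null. By library, Atf4 ran from 380 to 536 FPKM in rvWT and 346 to 481 in sim, against 256.5 to 265 FPKM in null. Asns, the asparagine synthetase, averaged 55.1 ± 14.1 FPKM in WT against 121 ± 30.6 FPKM in null cells, and 168 ± 2.58 in rvWT and 163 ± 4.30 in sim against 86.4 ± 0.737 FPKM in null cells of set B. Trib3, an ATF4 target that inhibits kinase signalling, differed most in set B, at 85.4 ± 9.04 FPKM in rvWT and 75.6 ± 11.4 FPKM in sim against 11.5 ± 1.36 FPKM in null cells. Phgdh and Psat1, enzymes of serine synthesis, were lower in WT (log2 differences -1.21 and -2.07; limma adjusted p = 0.00021 and 2.66e-05) and did not pass in rvWT (0.14 and -0.01; adjusted p = 0.0888 and 0.895).

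Of 23 tested genes for the Rag GTPases, Ragulator, GATOR and mTORC1, 9 were higher and 9 lower in WT against null (37.4% and 30.1% over the whole table). The split was 2 higher, 4 lower for rvWT (16% and 22.6% over the whole table) and 2 higher, 3 lower for sim (13.9% and 20.8%). The GATOR1 genes Depdc5, Nprl2 and Nprl3 were higher in WT, by 0.43, 0.54 and 0.70 on the log2 scale (limma adjusted p = 0.00235, 0.000838 and 0.000717). Sesn3, of the sestrin family, was lower in WT and rvWT, with log2 differences of -0.76 (limma adjusted p = 0.00147) and -0.47 (adjusted p = 0.00721). Of 12 carriers from other families, 8 were higher and none lower in WT, where 37.4% and 30.1% of all genes were. In rvWT none was higher and 1 lower (Slc25a12, the mitochondrial aspartate-glutamate carrier), where 16% and 22.6% of all genes were. Among those 8 were Slc16a10 (1.04; limma adjusted p = 0.00792), which carries aromatic amino acids, and Ctns (0.47; adjusted p = 0.00188), the lysosomal cystine exporter.

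The response to TGFβ was fitted over all 16 libraries with limma, with the 5 time courses as a factor (WT, rvWT, sim and null once per set), against 0 h of the same series. At 1 h, 2 of 23 members were called, both higher, where 5.96% of 11045 genes were called (3.95% higher and 2.01% lower). Without WT or without null at 16 h this count was 4. At 4 h, 12 of 23 were called, where 39% of genes were, 7 of them higher (11.9% of all genes) and 5 lower (27.1%). At 16 h, which set A alone holds, 10 of 23 were called, where 19.4% of genes were, 8 higher (6.84%) and 2 lower (12.5%). The median over members was -0.05, 0.01 and 0.05 at 1, 4 and 16 h, against -0.03, -0.08 and -0.07 over all genes.

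The WT and null libraries of set A fitted alone called no member at 1, 4 or 16 h, where 12, 16 and 245 genes of the whole table were called. Set B alone called 3 of 22 at 1 h and 14 of 22 at 4 h (7 higher and 7 lower), where 461 and 4266 genes were called. In set A alone the change of Slc6a6 at 1 h was 0.36, that of Slc6a8 at 1 h 0.42, that of Slc7a5 at 16 h 0.74 and that of Slc1a3 at 4 h -0.19. Median-ratio scaling moved the share of all 4 h calls that were higher to 51.1%, and quantile normalization to 45.6%, where it was 30.6% on FPKM as deposited. At 16 h that share was 52.5% and 50.8%, where it was 35.3%. The members' own split at 4 h was then 7 higher and 4 lower, or 8 and 4, and at 16 h 8 higher and 2 lower, or 8 and 0. For rvWT and sim against null the share of higher calls was 54.3% and 52.3% under quantile normalization, where it was 41.5% and 40.1%, with members split 9 higher and 3 lower, and 10 and 3.

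The members called at 1 h were the taurine and creatine transporters. Slc6a8 was above its 0 h level in 5 of 5 series at 1 h and in 4 of 4 at 4 h, by 0.36 to 0.52 and by 0.34 to 0.78 on the log2(FPKM + 1) scale. The fitted change was 0.42 ± 0.07 at 1 h (SE; limma adjusted p = 0.00643) and 0.62 ± 0.08 at 4 h (adjusted p = 0.000461). At 16 h it was below 0 h in WT and above it in null, at 0.08 ± 0.11 overall (adjusted p = 0.637). Slc6a6 was higher in every series at 1, 4 and 16 h, with fitted changes of 0.37 ± 0.05 (adjusted p = 0.00171), 0.47 ± 0.06 (adjusted p = 0.000323) and 0.41 ± 0.07 (adjusted p = 0.00395). The single-series changes of Slc6a6 ran from 0.25 to 0.46 at 1 h, with WT the highest.

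CD98 (Slc3a2) and its light chains Slc7a5 and Slc7a6 were called at 4 and 16 h and not at 1 h. At 1 h Slc7a5 was above 0 h in 5 of 5 series, by 0.03 to 0.57 (fitted change 0.22 ± 0.09, SE; limma adjusted p = 0.230), and so was Slc7a6, by 0.07 to 0.26 (0.16 ± 0.05; adjusted p = 0.0908). Slc7a5 was above 0 h in 4 of 4 series at 4 h (0.40 ± 0.10, SE; limma adjusted p = 0.0112) and in 2 of 2 at 16 h (0.71 ± 0.13; adjusted p = 0.00409). It reached 1.57 times its 0 h level in WT and 1.82 times in null cells at 16 h. Slc3a2 was 0.26 ± 0.07 higher at 4 h (adjusted p = 0.0198) and 0.52 ± 0.10 at 16 h (adjusted p = 0.0048), and at 1 h its changes ran from -0.07 to -0.02 in the 5 series. Slc7a6 rose by 0.40 ± 0.05 at 4 h (adjusted p = 0.000519) and 0.35 ± 0.07 at 16 h (adjusted p = 0.0065). Slc7a11 rose at 16 h alone (0.27 ± 0.08; adjusted p = 0.0349), a call lost in 7 of 16 fits that left out a library.

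Slc1a4, Slc6a9 and Slc7a1 also rose at 16 h. Of the other neutral carriers, Slc1a5 (-0.09), Slc38a1 (0.05) and Slc38a2 (-0.06) did not pass at 16 h. Slc1a4 was 0.26 ± 0.09 higher at 4 h (SE; limma adjusted p = 0.0359, lost in 8 of 16 fits that left out a library) and 0.78 ± 0.11 at 16 h (adjusted p = 0.00123). Its 16 h level was 1.53 times the 0 h level in WT and 2.10 times in null cells. Slc6a9 was 0.58 ± 0.12 higher at 16 h (adjusted p = 0.0101), and Slc7a1 was 0.33 ± 0.07 higher at 4 h (adjusted p = 0.00442) and 0.33 ± 0.09 at 16 h (adjusted p = 0.0258). Much of the 16 h result came from 1 library: without null at 16 h, 2 members were called (Slc1a4 and Slc6a6), the change of Slc7a5 was 0.45 (adjusted p = 0.0799), that of Slc3a2 0.31 (adjusted p = 0.0859) and that of Slc6a9 0.37 (adjusted p = 0.196).

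Other members fell with TGFβ. Slc1a3 was lower at 4 h, at -0.62 ± 0.18 (SE; limma adjusted p = 0.0217), with changes of -1.17 in rvWT and -0.96 in sim, against -0.12 in WT and -0.27 in null cells. The larger falls are those of set B and the smaller those of set A, so set and line cannot be told apart here. The 4 h call of Slc1a3 was lost in 4 of 16 fits that left out a library, each of them rvWT or sim at 0 or 4 h. Slc1a5 was below 0 h in 4 of 4 series at 4 h (-0.41 ± 0.06; adjusted p = 0.0011), as were Slc36a1 (-0.29 ± 0.06; adjusted p = 0.00354) and Slc38a9 (-0.42 ± 0.07; adjusted p = 0.00204). Slc38a1 was called lower at 4 h (-0.30 ± 0.10; adjusted p = 0.0333), but not under median-ratio scaling (adjusted p = 0.122) or quantile normalization (adjusted p = 0.0659) or in 9 of 16 fits that left out a library. Slc43a3 was lower at 16 h by -0.47 ± 0.13 (adjusted p = 0.0289), with a change of -0.19 in WT and -0.78 in null, and was not called under quantile normalization (adjusted p = 0.084) or without null at 16 h (adjusted p = 0.368).

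**Figure D5:**
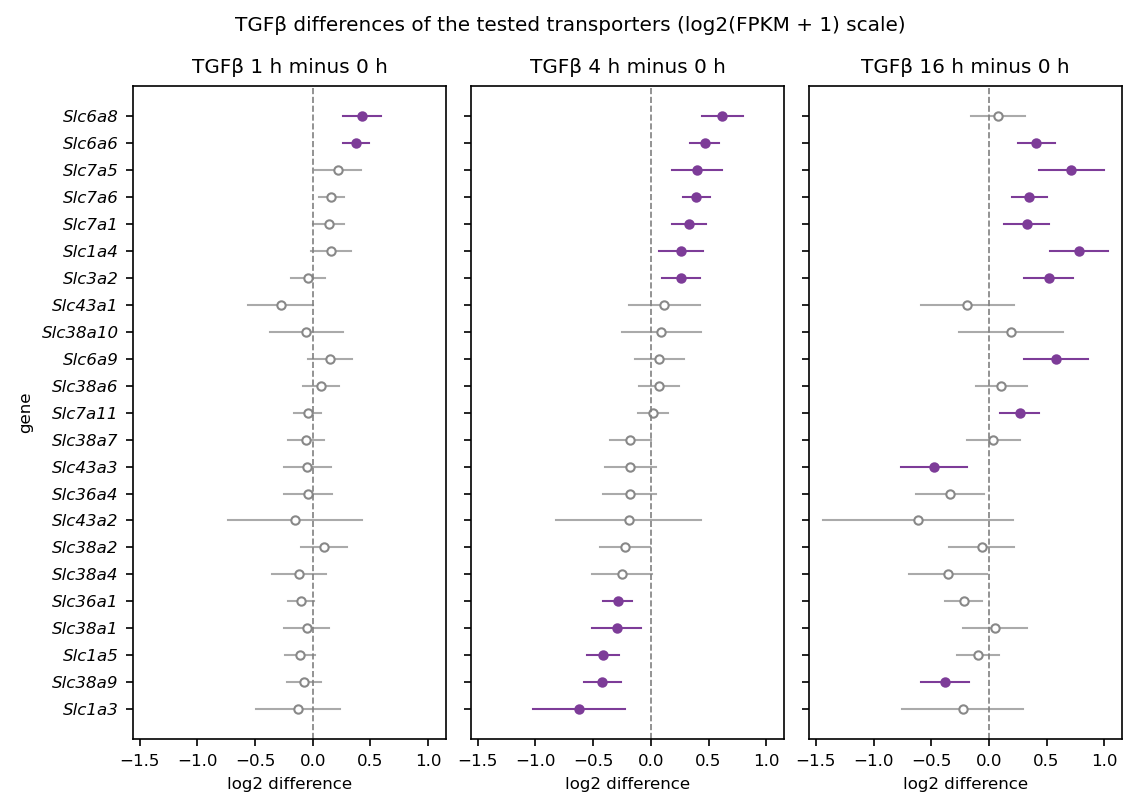
Log2 differences of the 23 tested members (rows, ordered by the 4 h value) at 1, 4 and 16 h of TGFβ against 0 h over all series, with 95% confidence intervals from limma as bars; filled points passed an adjusted p of 0.05. Slc6a8 and Slc6a6 passed at 1 h, and Slc1a4 and Slc7a5 had the largest values at 16 h, 0.78 and 0.71.

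Of the 8 tested ATF4 target carriers, none was called at 1 h, 4 were higher and 1 (Slc1a5) lower at 4 h, and 6 were higher and none lower at 16 h (median 0.42, against -0.07 over all genes). When a library was left out, 2 to 4 were higher at 4 h (2 without WT at 4 h or rvWT at 0 h). Without null at 16 h, 1 of the 8 was called, 4 without null of set A at 0 h, and in set A alone none was, with a median of 0.40. Of the 18 ATF4 pathway and synthesis genes, 3 were higher and 3 lower at 1 h, 6 higher and 2 lower at 4 h, and 12 higher and 1 lower (Psat1) at 16 h. The 16 h count higher was 7 without null at 16 h and 4 in set A alone. Atf4 itself was 0.36 ± 0.05 higher at 4 h (limma adjusted p = 0.00108) and 0.41 ± 0.07 at 16 h (adjusted p = 0.00363), Asns was 0.64 ± 0.04 higher at 16 h (adjusted p = 1.08e-05), and Ddit3 was lower at 1 h, at -0.49 ± 0.05 (adjusted p = 0.000344).

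Whether the TGFβ response of the members differed with Arkadia was tested as an interaction. No member passed at 1 h (0 of 23, where 0.00905% of 11045 genes did) or at 4 h (0 of 23, where 0.0362% did, 0.0181% in each direction) for Arkadia-carrying against null cells, and 0 and 2 members had an unadjusted limma p under 0.05. For WT against null at 16 h, 0 of 23 passed, where 1.62% of genes did (1.17% higher and 0.453% lower), and 8 members had an unadjusted p under 0.05. Without WT at 4 h 3 members passed, and without rvWT at 1 h 1 did. The closest were Slc38a1 (-0.66, 95% interval -0.99 to -0.33; limma adjusted p = 0.0707), Slc1a4 (-0.54, -0.82 to -0.26; adjusted p = 0.0764) and Slc7a1 (-0.41, -0.64 to -0.18; adjusted p = 0.0915). Each arm at 16 h is 1 library. At 4 h the null arm is also 1 library, of set A, and the Arkadia-carrying arm pools WT of set A with rvWT and sim of set B.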

How the data were processed

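The authors deposited 1 table of FPKM values for 12100 genes in 16 libraries. Cufflinks 2.2.1, STAR 2.3.0e, CASAVA 1.8.2 and SAMtools, on build mm9, are listed per the submitters' processing notes, with no role or order; the annotation is not given in the sources used here, nor is the handling of reads that match several gene copies. Of the 27 members, 7 are listed under a transcript variant, so their level may be that isoform's alone. FPKM holds no read counts, so depth is unknown and precision comes from the scatter between libraries.

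Values were analysed as log2(FPKM + 1), which understates changes of low genes, after a filter of a mean of 1 FPKM, with limma 3.58.1 (trend; R 4.3.3) over the whole table, Benjamini-Hochberg adjusted, at 0.05. Line fits had time as a factor and the TGFβ fits the series. The steps were tested on simulated data. Alternatives were pseudocounts of 0.1 and 5, no filter or 5 FPKM, quantile or median-ratio scaling, no trend in limma, leaving out each library, and sets A and B fitted separately. Named in full are Slc3a2, Slc7a5, Slc7a11 and, per comparison, the up to 6 called members each way of largest change with at least 5 FPKM. Other members appear by range, count or single values, outside that rule. The members and lists were chosen with earlier results of these data known. Sequences are from RefSeq, GRCm38.p6.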

Additional observations from a re-analysis of the deposited data

How the results depend on the processing

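Of 1007 refits of the 54 gene results named by the rule, 924 kept their direction and their side of the threshold, 83 kept the direction and lost the call, and none reversed. Of 373 refits with another pseudocount, filter, scaling or no trend, 6 lost the call. The counts of called members stayed within 1.5 times under each of those alternatives in all 10 comparisons. In set A alone the counts were 0 at 1 h, 0 at 4 h and 0 at 16 h of TGFβ, with 8 libraries in place of 16 in the fit. Leaving out each library gave counts of 19 to 21 in WT against null, 7 to 12 in rvWT against null, 7 to 12 in sim against null and 0 to 0 in rvWT against sim. The same step gave 2 to 4 at 1 h, 8 to 13 at 4 h and 2 to 11 at 16 h of TGFβ, and for the differences in response 0 to 0 at 1 h, 0 to 0 at 4 h and 0 to 3 at 16 h. The count at 1 h was 4 without WT or null at 16 h. The differences in response could not be fitted without null at 4 h or at 16 h, nor that at 16 h without WT at 16 h. The labels give no replicate numbers that lines share, so no block on such a number was fitted; libraries were matched by time in the line fits and by series in the TGFβ fits. With 1 library per line and time, a change in a single series has no replicate check, and FPKM without counts gives no counting interval for the low members.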
